A study of Homo sapiens with 12 samples.

Results

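PC9 cells treated for 36 h with 0.1 μM osimertinib were compared with PC9 cells collected at T0, which together make 4 of the 12 libraries of an RNA-seq study of 2 lung cancer cell lines. The 4 libraries were chosen by their labels alone, are 2 labelled replicates of each group, and are described here across all genes. PC9 is an established human lung adenocarcinoma line whose EGFR gene carries an activating deletion in the kinase domain, and osimertinib is a covalent inhibitor of mutant EGFR. Both groups were seeded in 6-well plates, adhered overnight in RPMI with 10% fetal bovine serum and are labelled wild-type in genotype, and T0 cells carried 0.1% DMSO and were harvested at the time of drugging. The other 8 libraries are PC9 cells after 36 h with 10 μM erlotinib, a reversible EGFR inhibitor, and H1650 cells at T0 and after 36 h with each drug, and they appear here only beside the PC9 response to osimertinib. No PC9 library kept for 36 h in vehicle was analysed here, so the effect of the drug and that of 36 h in culture cannot be told apart in any value against T0. The study's methods describe a PBS wash before treated cells were lifted with trypsin, so these libraries hold cells that were still attached. The labels do not say whether replicates came from separate cultures, while the study's supplement calls its 2 RNA-seq replicates biological. The p-values measure the spread between labelled replicates.

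EGFR passes its signal through RAS, RAF, MEK and ERK, which switch on immediate early genes, ETS factors and cyclin D, and through PI3K and AKT, which hold FOXO transcription factors out of the nucleus. ERK also induces its own inhibitors, among them Sprouty proteins and dual-specificity phosphatases, so the RNA of these genes is widely read as a gauge of ERK activity. In lung cancer cells with mutant EGFR, inhibitors of the receptor are known to silence this cascade, to arrest cells before DNA replication and, in some lines, to start apoptosis through the BH3-only protein BIM.

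The T0 libraries held 20922022 and 21550639 counted reads and the osimertinib libraries 22060986 and 18550718. Values are CPM, the reads of a gene scaled to the same library total with edgeR's TMM factors and not divided by gene length, and 3 reads, which a count of 0 allows, came to between 0.139 and 0.168 CPM. Mitochondrial genes took 5.17% and 4.54% of reads at T0 and 7.202% and 6.32% after osimertinib. The 10 lung epithelial markers summed to 11264 and 10999 CPM at T0 and 14173 and 15091 CPM after osimertinib. The 10 leukocyte markers summed to between 0.907 and 1.78 CPM at T0 and between 1.02 and 1.07 CPM after osimertinib, with CD3D and MS4A1 at 0 in all 4 libraries. The 5 endothelial markers summed to between 2.91 and 2.92 CPM at T0 and between 5.61 and 6.38 CPM after osimertinib. Epithelial markers were thus present throughout and those of blood cells at or near 0. These are bulk samples, in which fewer cells of a kind and less RNA per cell cannot be told apart.

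Osimertinib was followed by a change across most of the transcriptome of PC9 cells. Of 19108 genes tested, 11735 (61.4%) were called with edgeR's quasi-likelihood test at a Benjamini-Hochberg adjusted p under 0.05, of which 6252 (32.7% of those tested) were higher and 5483 (28.7%) lower than at T0. The balance of directions turned with no filter on low counts (5719 higher and 5975 lower), with the 6 PC9 libraries alone (5821 and 5856) and with the 4 libraries compared (5832 and 5890). The median log2 fold change of all genes was 0.06 and its median size 0.71. More than 2-fold changes were called for 3486 genes that rose and 2476 that fell, more than 4-fold changes for 1616 and 972, and more than 8-fold changes for 756 and 432. With at least 10 counts required in every library, 3718 genes in all were called beyond 2-fold, beside 5962 here. Of the called genes 3022 moved by at most 1.5-fold. Of the 7373 genes not called, 1133 had a fitted change of over 2-fold that did not pass the test. The share called was 26.9% for 4569 genes with a mean under 1 CPM and 79.9% for 2328 genes between 100 and 1000 CPM.

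**Figure D1:**
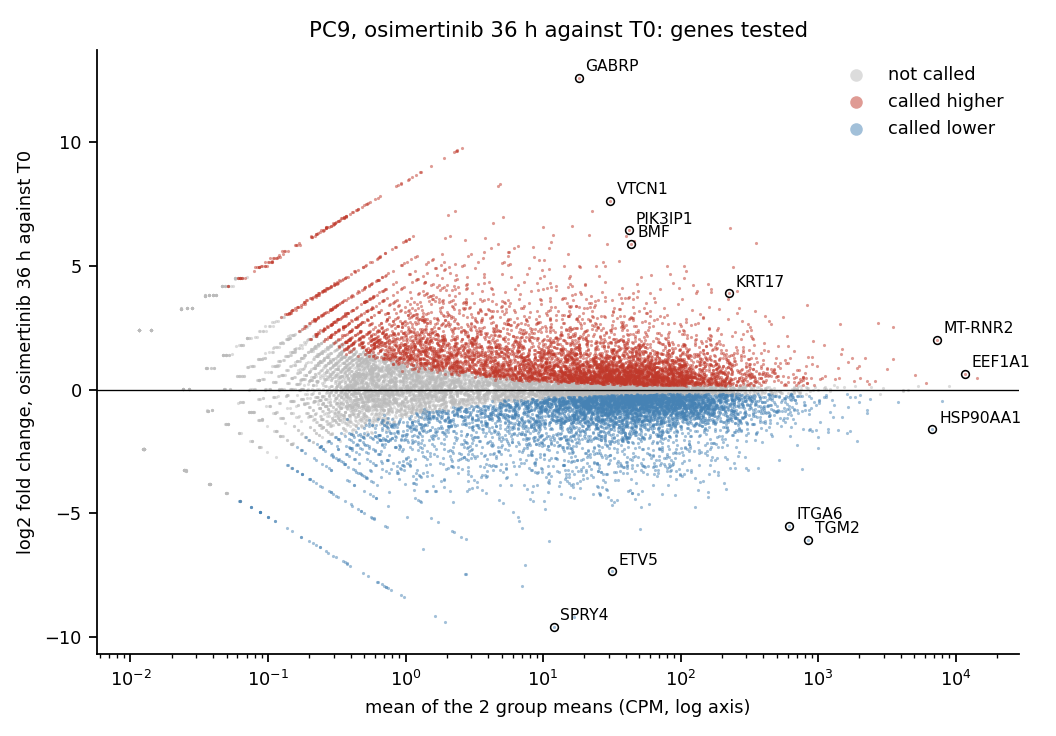
Log2 fold change of each tested gene after 36 h of osimertinib against T0 in PC9 (vertical axis) by its mean level (horizontal axis, CPM on a log scale). Called genes, in red and blue, reach beyond 8-fold in both directions, with 756 genes that far above T0 and 432 that far below it.

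In the values that follow, "from a and b to c and d CPM" gives both T0 libraries and then both osimertinib libraries, ± is the standard error of edgeR's log2 fold change, and a gene is said to have risen or fallen only where it passed the test. Where a group held at most 3 reads in each library, the fold is a lower bound set against 3 reads. Genes were named because they lie at the ends of the range or belong to a list of a pathway or cell type. Counts of list members that rose or fell are to be read beside the 32.7% and 28.7% of all genes tested that did.

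The genes with the steepest losses went from well-measured levels to near 0 or to a small part of their T0 level. SPRY4 (chr5:142310427-142326455, minus strand of GRCh38 in GENCODE 29), a Sprouty inhibitor of RAS signalling, stood at 22.1 and 25.8 CPM at T0 and 0 and 0.0561 CPM after osimertinib (at least 156-fold lower, edgeR adjusted p = 4.04e-17). That is 438 and 522 reads at T0 and 0 and 1 after osimertinib. IL1R2 (chr2:101991844-102028544, plus strand), the decoy receptor for interleukin-1, stood at 30.9 and 35.8 CPM at T0 and 0 and 0.112 CPM after osimertinib (at least 217-fold lower, edgeR adjusted p = 3.19e-17). ETV5 (chr3:186046308-186110318, minus strand), an ETS factor of the PEA3 group, stood at 62.1 and 63.5 CPM at T0 and 0.3699 and 0.392 CPM after osimertinib (log2 fold change -7.35 ± 0.22 SE, edgeR adjusted p = 4.31e-21). In all of these genes both osimertinib libraries lay far below both T0 libraries and close to the floor. TGM2, the tissue transglutaminase, fell from 1647 and 1708 to 24.3 and 26.1 CPM (log2 fold change -6.06 ± 0.085). ITGA6, the integrin α6 chain, fell from 1168 and 1251 to 26.7 and 26.4 CPM (log2 fold change -5.51 ± 0.088). CD44, the hyaluronan receptor, fell from 1327 and 1415 to 144 and 156 CPM (log2 fold change -3.19 ± 0.078). These surface and matrix genes thus lost most of their RNA from a high level at T0. HMGA2, an architectural chromatin protein, fell from 238 and 250.5 to 9.43 and 8.69 CPM (log2 fold change -4.75 ± 0.11). The 20 lowest fold changes among genes of at least 20 CPM in the higher group also included MALL, ETV4, MYH16, LIPG, CDCA7, SPRED2, TRBC2, GAL, the transcription factor E2F2 and the replication genes MCM10, GINS2, ORC1, RRM2 and CDC45, with log2 fold changes from -6.13 for MALL to -4.26 for CDC45.

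Several of the steepest gains were in genes that were silent or nearly silent at T0. GABRP (chr5:170763350-170814047, plus strand), the π subunit of the GABA-A receptor, had no read in either T0 library and reached 36.02 and 36.8 CPM after osimertinib (at least 243-fold higher, edgeR adjusted p = 8.64e-18). VTCN1 (chr1:117143587-117210960, minus strand), which encodes the checkpoint ligand B7-H4, stood at 0.151 and 0.444 CPM at T0 and 58.5 and 63.01 CPM after osimertinib (log2 fold change 7.64 ± 0.20 SE, edgeR adjusted p = 2.1e-22). PIK3IP1 (chr22:31281593-31292534, minus strand), an inhibitor of PI3K, stood at 1.01 and 0.888 CPM at T0 and 79.7 and 86.6 CPM after osimertinib (log2 fold change 6.45 ± 0.15 SE, edgeR adjusted p = 4.26e-23). In each case the osimertinib libraries were alike and lay well above both T0 libraries. BMF (chr15:40087890-40108892, minus strand), a BH3-only death gene, stood at 1.76 and 1.09 CPM at T0 and 85.4 and 85.9 CPM after osimertinib (log2 fold change 5.91 ± 0.14 SE, edgeR adjusted p = 5.05e-23). TP53INP1, a p53-inducible autophagy factor, rose from 0.353 and 0.247 to 45.6 and 45.3 CPM (log2 fold change 7.22 ± 0.21). IGFBP5, an insulin-like growth factor binding protein, rose from 4.69 and 5.08 to 454 and 446 CPM (log2 fold change 6.52 ± 0.12). These genes went from a few CPM or less to well-measured levels. ALPP, the placental alkaline phosphatase, which can share reads with close relatives, rose from 11.8 and 10.8 to 701 and 698 CPM (log2 fold change 5.95 ± 0.10). PTGIS, the prostacyclin synthase, rose from 6.35 and 6.32 to 201 and 208 CPM (log2 fold change 5.01 ± 0.12). Others among the 20 highest were BCAS1, SLC7A7, TMEM86A, ATG9B, LOXL4, DOCK8, CLEC7A, CRISP3, PDZK1, RGL1, ABI3BP and the lincRNA AL590004.3. Annotated genes overlap several of these on the opposite strand, among them BMF-AS1, PIK3IP1-AS1, NOS3 at ATG9B and NDUFAF6 at TP53INP1. Whether the counting used strand is not given in the sources used here, so the reads of such pairs cannot be told apart.

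**Figure D2:**
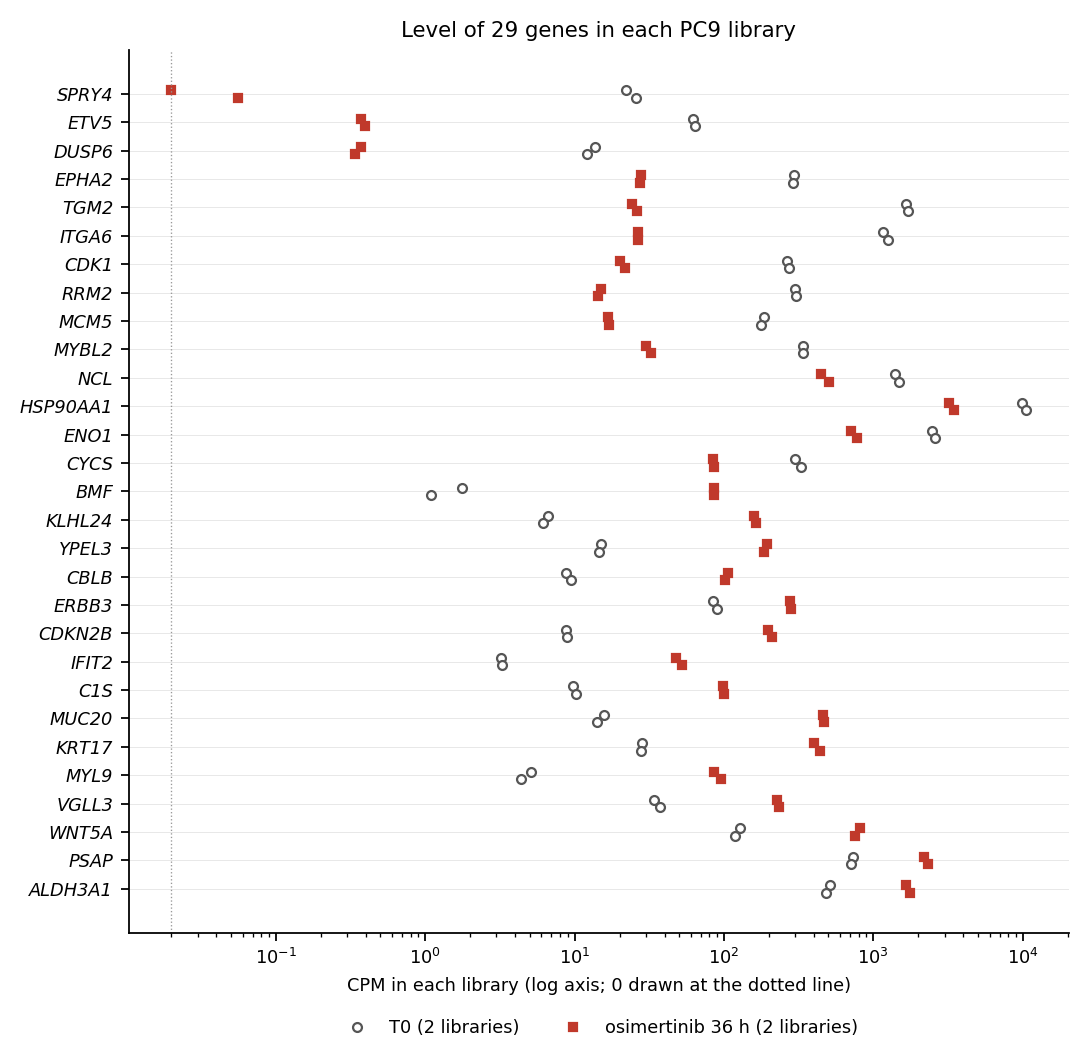
Level of 29 genes (CPM, log axis) in each PC9 library, with open circles for T0 and filled squares for osimertinib. In each of the 29 genes the pair of osimertinib libraries is separate from the pair of T0 libraries, and the spread within a pair is small beside the gap between pairs.

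Counted in CPM rather than in fold, the largest losses and gains fell on housekeeping and structural genes. HSP90AA1, a cytosolic chaperone of kinases and the largest loss in CPM, fell from 9905 and 10539 to 3217 and 3493 CPM (log2 fold change -1.61 ± 0.078). ACTB, a cytoplasmic actin, fell from 9147 and 9340.3 to 6433 and 6970.2 CPM (log2 fold change -0.46 ± 0.068). ENO1, a glycolytic enolase, fell from 2471 and 2578 to 709 and 775 CPM (log2 fold change -1.77 ± 0.069). MT-RNR2, the large ribosomal RNA of mitochondria and the largest gain in CPM, rose from 2953 and 2828 to 11763 and 11704 CPM (log2 fold change 2.02 ± 0.086). EEF1A1, a translation elongation factor, rose from 8820.3 and 9550.4 to 13519 and 15139 CPM (log2 fold change 0.64 ± 0.074). IGFBP3, another insulin-like growth factor binding protein, rose from 1031 and 1038 to 5872 and 5966 CPM (log2 fold change 2.52 ± 0.074). Apart from these, the gains went mostly to genes of the epithelial surface and of iron storage. GPRC5A, a retinoic acid induced receptor, rose from 724 and 729.6 to 4625 and 4859.7 CPM (log2 fold change 2.71 ± 0.071). FTL, the ferritin light chain, rose from 2122 and 2084 to 4817 and 5053 CPM (log2 fold change 1.23 ± 0.068). The molecule is labelled polyA RNA, and the share of mitochondrial reads given above moved with MT-RNR2, whose part in it was not tested.

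At the receptor itself the family members moved in opposite directions, EGFR down and its partners up. EGFR, the target of the drug, fell from 1104 and 1225 to 739 and 777 CPM (log2 fold change -0.62 ± 0.075). ERBB3, the kinase-impaired partner that couples to PI3K, rose from 84.3 and 89.5 to 278 and 281 CPM (log2 fold change 1.68 ± 0.077). ERBB2 rose from 87.1 and 86.5 to 191 and 183 CPM (log2 fold change 1.11 ± 0.073). ERBB4 was below the expression filter. Of 10 tested EGF family ligands and relatives, 1 rose and 5 fell. AREG, amphiregulin, fell from 10.1 and 9.53 to 0.509 and 0.2803 CPM (log2 fold change -4.58 ± 0.34). HBEGF fell from 28.9 and 30.4 to 4.07 and 3.98 CPM (log2 fold change -2.88 ± 0.16). TGFA fell from 139 and 142 to 61.4 and 72.04 CPM (log2 fold change -1.08 ± 0.081). Of 11 genes that restrain the receptor, 2 rose and 8 fell. CBLB, an E3 ubiquitin ligase, rose from 8.82 and 9.48 to 107 and 101 CPM (log2 fold change 3.504 ± 0.10). ERRFI1, an ERK-induced inhibitor of the EGFR kinase, fell from 58.2 and 54.6 to 32.05 and 31.8 CPM (log2 fold change -0.82 ± 0.082).

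Among 24 other receptor tyrosine kinases, 9 rose and 8 fell (37.5% and 33.3%, near the 32.7% and 28.7% of all genes). MET, known as a route around EGFR inhibition, rose from 619 and 649.9 to 886 and 948 CPM (log2 fold change 0.53 ± 0.072). AXL, known as another, fell from 558 and 582 to 323 and 349.9 CPM (log2 fold change -0.76 ± 0.074). EPHA2, an ephrin receptor, fell from 295 and 288 to 27.7 and 27.6 CPM (log2 fold change -3.40 ± 0.084). MET and AXL thus moved apart, and the loss of EPHA2 was larger than either. IGF1R rose from 83.03 and 88.3 to 132 and 147 CPM (log2 fold change 0.70 ± 0.078). EPHA4 rose from 15.7 and 16.5 to 67.8 and 66.8 CPM (log2 fold change 2.07 ± 0.12). ROR1 fell from 61.2 and 57.2 to 11.1 and 9.53 CPM (log2 fold change -2.51 ± 0.12). KIT, RET and NTRK2 were among the 7 that did not pass the test.

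The Sprouty and SPRED inhibitors of RAS signalling fell without exception, 6 of 6 where 28.7% of all genes fell, with a median log2 fold change of -2.54 beside 0.06 for all genes. SPRED2 fell from 64.6 and 68.1 to 2.82 and 3.196 CPM (log2 fold change -4.47 ± 0.12). SPRED1 fell from 46.7 and 53.5 to 7.35 and 7.46 CPM (log2 fold change -2.76 ± 0.12). SPRY2 fell from 23.3 and 22.1 to 4.25 and 4.82 CPM (log2 fold change -2.33 ± 0.15). The 13 dual-specificity phosphatases split, with 6 higher and 7 lower. DUSP6, the cytosolic ERK phosphatase, fell from 13.6 and 12.04 to 0.3699 and 0.336 CPM (log2 fold change -5.15 ± 0.32). DUSP5, a nuclear ERK phosphatase, fell from 30.1 and 34.01 to 12.3 and 12.1 CPM (log2 fold change -1.39 ± 0.13). DUSP1, which acts mainly on p38 and JNK, rose from 14.9 and 12.2 to 111 and 103 CPM (log2 fold change 2.98 ± 0.11). The gene of the ERK phosphatase DUSP6 and that of DUSP1 therefore lay on opposite sides of T0. DUSP10, a phosphatase of p38 and JNK, rose from 8.17 and 11.6 to 44.02 and 47.4 CPM (log2 fold change 2.21 ± 0.14). DUSP8, a phosphatase of JNK, rose from 2.92 and 3.06 to 24.7 and 24.1 CPM (log2 fold change 3.02 ± 0.18).

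The ETS factors fell in 9 of 13 genes and rose in 3. ETV4 fell from 99.2 and 98.4 to 1.53 and 2.58 CPM (log2 fold change -5.61 ± 0.16). ETV1 fell from 4.29 and 5.73 to 0.0925 and 0.0561 CPM (at least 32.6-fold lower). ELF3, an ETS factor of differentiated epithelium, rose from 19.7 and 21.2 to 302 and 321 CPM (log2 fold change 3.93 ± 0.082). The PEA3 group, ETV1, ETV4 and ETV5, thus lost nearly all of its RNA while the epithelial ELF3 gained. Of 19 RAS and kinase genes of the cascade, 5 rose and 9 fell. MAPK3, which encodes ERK1, rose from 59.3 and 52.9 to 108 and 113 CPM (log2 fold change 0.98 ± 0.080).

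The AP-1 and EGR factors, immediate early genes that growth factors induce, rose in 9 of 16 and fell in 5. FOSL1, a FOS relative that tracks sustained ERK activity, fell from 299.9 and 296 to 18.7 and 14.9 CPM (log2 fold change -4.14 ± 0.10). FOS rose from 19.7 and 15.6 to 139 and 128 CPM (log2 fold change 2.92 ± 0.12). EGR1 rose from 36.05 and 27.6 to 175 and 150.0 CPM (log2 fold change 2.35 ± 0.10). FOSL1 and FOS were thus displaced in opposite directions at 36 h. ATF3 rose from 3.73 and 2.32 to 38.8 and 37.6 CPM (log2 fold change 3.66 ± 0.14). JUND rose from 77.7 and 65.1 to 256 and 258 CPM (log2 fold change 1.85 ± 0.10). JUN stood at 206 and 175 CPM at T0 and 228 and 206 CPM after osimertinib and did not pass the test (edgeR adjusted p = 0.145).

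FOXO targets rose in 17 of 20 genes, where 32.7% of all genes rose, with a median log2 fold change of 1.74. FOXO factors enter the nucleus when AKT is inactive and induce genes of quiescence and catabolism. KLHL24, an E3 ligase adaptor, rose from 6.604 and 6.17 to 160.0 and 165 CPM (log2 fold change 4.67 ± 0.11). FBXO32, the ubiquitin ligase atrogin-1, rose from 6.403 and 6.81 to 86.8 and 91.7 CPM (log2 fold change 3.75 ± 0.10). YPEL3, a nuclear growth suppressor, rose from 15.02 and 14.6 to 194 and 185 CPM (log2 fold change 3.68 ± 0.10). Each of these was low at T0 and rose over 8-fold. CCNG2, a cyclin of non-dividing cells, rose from 10.4 and 11.3 to 63.7 and 65.8 CPM (log2 fold change 2.58 ± 0.10). CDKN1B, the p27 inhibitor of CDKs, rose from 63.8 and 67.5 to 123 and 136 CPM (log2 fold change 0.98 ± 0.084). TRIB2, a pseudokinase and the largest of 3 losses, fell from 29.7 and 27.6 to 2.08 and 2.13 CPM (log2 fold change -3.76 ± 0.16). In the list of PI3K, AKT and mTOR genes 12 of 29 rose and 10 fell. ULK1, the autophagy kinase, rose from 58.3 and 56.3 to 241 and 212 CPM (log2 fold change 1.98 ± 0.081). MTOR fell from 134 and 139 to 72.3 and 74.9 CPM (log2 fold change -0.89 ± 0.082). AKT1 fell from 149 and 162 to 84.1 and 96.3 CPM (log2 fold change -0.78 ± 0.078).

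The promoter windows of TRIB2 and YPEL3 are shown as those of FOXO targets with large changes that reach 10 CPM and hold the letters of a FOXO motif. TRIB2 and YPEL3 moved in opposite directions while their windows hold the same letters. Windows are RefSeq promoters of GRCh38.p14, 250 bases before to 50 after a gene's start, printed 5′ to 3′ on the gene's strand, with GTAAACA, the core FOXO motif, or its reverse complement in capitals.
TRIB2, chr2:12716686-12716985, plus strand: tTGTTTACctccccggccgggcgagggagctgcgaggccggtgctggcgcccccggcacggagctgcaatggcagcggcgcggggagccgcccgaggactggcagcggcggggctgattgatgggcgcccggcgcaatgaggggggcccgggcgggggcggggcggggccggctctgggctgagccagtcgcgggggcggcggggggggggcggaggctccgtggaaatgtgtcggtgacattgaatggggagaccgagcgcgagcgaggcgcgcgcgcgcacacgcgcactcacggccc
YPEL3, chr16:30096164-30096463, minus strand: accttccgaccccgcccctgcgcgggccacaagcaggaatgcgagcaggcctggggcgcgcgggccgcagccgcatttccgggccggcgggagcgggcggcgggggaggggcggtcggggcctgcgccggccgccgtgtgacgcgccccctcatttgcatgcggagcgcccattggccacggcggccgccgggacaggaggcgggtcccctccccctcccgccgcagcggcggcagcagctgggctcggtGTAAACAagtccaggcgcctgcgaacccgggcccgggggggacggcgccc
These letters, searched on both strands, were in 5 of 27 windows of 17 matched FOXO targets (18.5%), beside 3.42% of all 35116 windows. Each match given here is a description of letters and not a binding site, and where a gene has several windows one that holds the motif is printed.

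Genes of cell death moved both ways, with called shares of 75% for BH3-only genes, 60% for survival genes of the BCL2 family and 82.4% for caspases and other effectors, beside 61.4% of all genes. Of 8 BH3-only genes, which start mitochondrial apoptosis, 5 rose and 1, BID, fell. BCL2L11, which encodes BIM, rose from 18.9 and 19.1 to 59.9 and 63.6 CPM (log2 fold change 1.70 ± 0.091). BBC3, which encodes PUMA, rose from 3.98 and 3.41 to 18.9 and 18.5 CPM (log2 fold change 2.34 ± 0.19). HRK rose from 0.403 and 0.0494 to 3.61 and 4.93 CPM (log2 fold change 4.20 ± 0.43). BAD stood at 28.4 and 26.3 CPM at T0 and 25.2 and 25.1 CPM after osimertinib and did not pass the test (edgeR adjusted p = 0.469). Pro-apoptotic transcripts of this class were thus mostly higher, with BMF the largest change. Of 5 survival genes of the BCL2 family, 2 fell and 1 rose. BCL2 fell from 9.38 and 10.02 to 0.971 and 1.18 CPM (log2 fold change -3.18 ± 0.29). BCL2L1, which encodes BCL-XL, fell from 160.2 and 169.7 to 68.9 and 76.9 CPM (log2 fold change -1.18 ± 0.079). The pore-forming effectors BAX and BAK1 fell by 0.60 and 0.68 on the log2 scale. CYCS, cytochrome c, whose pseudogenes can take some of its reads, fell from 299 and 326 to 84.1 and 86.4 CPM (log2 fold change -1.87 ± 0.083).

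In the list of caspases and other effectors, which includes CYCS given above, 8 of 17 genes rose and 6 fell. In a separate list of 6 inhibitors of apoptosis 4 rose and 1 fell, with log2 fold changes between -2.97 and 5.72. BIRC7, also called livin and the largest gain of that list, rose from 0.252 and 0.197 to 14.4 and 9.87 CPM (log2 fold change 5.72 ± 0.41). TNFSF10, the death ligand TRAIL, rose from 1.56 and 1.53 to 26.1 and 33.9 CPM (log2 fold change 4.27 ± 0.21). Of 13 tested genes of the death receptor list 6 rose and 5 fell, and a receptor for that ligand was among those that fell. TNFRSF10A, a TRAIL receptor, fell from 24.5 and 25.4 to 3.19 and 2.75 CPM (log2 fold change -3.06 ± 0.21). Of 11 genes of pyroptosis and necroptosis 9 rose, and GSDMC and MLKL fell. GSDME, a gasdermin, rose from 7.71 and 8.54 to 25.2 and 27.2 CPM (log2 fold change 1.69 ± 0.12). GSDMB, another gasdermin, rose from 9.98 and 9.97 to 60.9 and 51.7 CPM (log2 fold change 2.50 ± 0.15). MLKL, which forms the necroptotic pore, fell from 32.6 and 28.5 to 6.84 and 8.41 CPM (log2 fold change -2.01 ± 0.14). Of 18 p53 targets, 9 rose and 6 fell, with GDF15, a stress cytokine, up by 3.91 on the log2 scale and CDKN1A, which encodes p21, at -0.48.

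**Figure D3:**
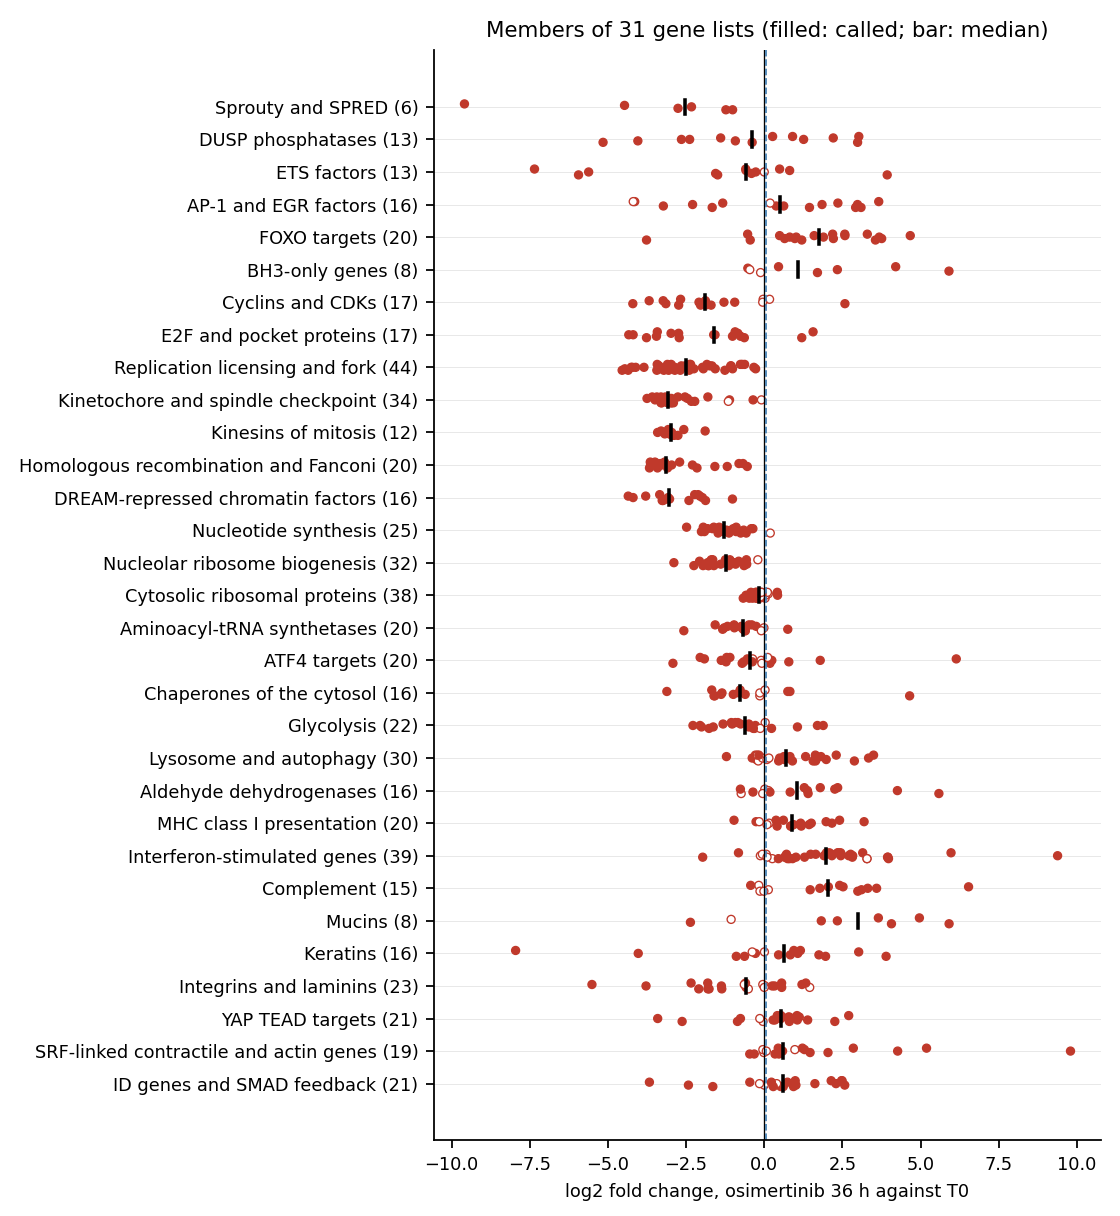
Log2 fold change after osimertinib against T0 for each tested member of 31 gene lists, with the number tested beside each name. Filled points were called, open points were not, the black bar is the median of a list and the dashed line the median of all genes. The 7 cell cycle lists drawn, from cyclins to DREAM-repressed factors, have medians left of 0, and most members of the mucin, complement and interferon lists lie to its right.

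Genes of DNA replication and mitosis fell almost without exception. All 44 replication licensing and fork genes fell, with a median log2 fold change of -2.49, and their CPM summed to 4580.3 and 4619 CPM at T0 and 1078 and 1134 CPM after osimertinib. All 12 mitotic kinesins fell (median -2.996), as did all 20 genes of homologous recombination and the Fanconi pathway (-3.14) and all 16 chromatin and nucleotide genes that the DREAM complex represses in quiescence (-3.05). Of 34 kinetochore and checkpoint genes 32 fell and the other 2 did not pass the test. MCM5, a subunit of the replicative helicase, fell from 185 and 176 to 16.8 and 16.9 CPM (log2 fold change -3.42 ± 0.087). CDC6, which loads that helicase, fell from 98.5 and 99.3 to 5.27 and 6.22 CPM (log2 fold change -4.11 ± 0.12). PCNA, the sliding clamp of DNA polymerase, fell from 321 and 305 to 39.3 and 47.1 CPM (log2 fold change -2.86 ± 0.085). In these replication genes the T0 pair was several-fold above the osimertinib pair. RRM2, which makes deoxynucleotides, fell from 297 and 303 to 15.1 and 14.3 CPM (log2 fold change -4.35 ± 0.090). TPX2, a spindle assembly factor, fell from 436 and 466 to 45.9 and 55.5 CPM (log2 fold change -3.16 ± 0.085). PLK1, a mitotic kinase, fell from 328 and 309 to 31.9 and 33.8 CPM (log2 fold change -3.28 ± 0.080). Losses of over 8-fold were thus found in genes of S phase and of mitosis alike. FANCI, of DNA crosslink repair, fell from 150.2 and 159.8 to 12.4 and 15.2 CPM (log2 fold change -3.49 ± 0.10).

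Some members of these lists fell by far less. ORC3, a subunit of the origin recognition complex, fell from 33.2 and 32.3 to 19.9 and 20.2 CPM (log2 fold change -0.71 ± 0.10). RFC1, the large subunit of the clamp loader, fell from 104 and 114 to 71.9 and 69.6 CPM (log2 fold change -0.63 ± 0.082). ORC1, the origin recognition subunit whose level cycles, fell from 55.5 and 57.6 to 2.68 and 2.86 CPM (log2 fold change -4.35 ± 0.14). ORC1 and ORC3, of the same complex, thus differed widely in their change. MIS12, of the kinetochore, fell from 33.9 and 34.8 to 27.01 and 26.6 CPM (log2 fold change -0.36 ± 0.10). PALB2, the partner of BRCA2, fell from 33.8 and 33.8 to 21.7 and 24.8 CPM (log2 fold change -0.54 ± 0.10).

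Among cyclins, CDKs and CDC25 phosphatases, 13 of 17 fell, and CCNG2 alone rose. CDK1, the mitotic kinase, fell from 264 and 274 to 20.2 and 21.8 CPM (log2 fold change -3.68 ± 0.089). CCND1, the cyclin that mitogens induce, fell from 716 and 749 to 201 and 196 CPM (log2 fold change -1.88 ± 0.068). CDC25A, a CDK-activating phosphatase, fell from 51.4 and 46.7 to 2.82 and 2.47 CPM (log2 fold change -4.20 ± 0.13). The CDK inhibitors did not move as a block, with 4 of 7 higher and 3 lower. CDKN2B, which encodes p15, rose from 8.72 and 8.88 to 197 and 209 CPM (log2 fold change 4.53 ± 0.10). CDKN1C, which encodes p57, rose from 1.36 and 1.33 to 6.75 and 8.69 CPM (log2 fold change 2.51 ± 0.30). CDKN2C, which encodes p18, fell from 20.4 and 17.3 to 4.21 and 3.92 CPM (log2 fold change -2.21 ± 0.16). Of 17 E2F and pocket protein genes 15 fell, and RBL2 and TFDP2 rose. E2F1 fell from 88.9 and 86.8 to 5.87 and 7.12 CPM (log2 fold change -3.77 ± 0.12). MYBL2 fell from 340.4 and 340.1 to 30.2 and 32.3 CPM (log2 fold change -3.45 ± 0.078). RBL2, which encodes the quiescence pocket protein p130, rose from 72.7 and 72.6 to 169 and 165 CPM (log2 fold change 1.20 ± 0.076).

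Of 13 tested genes of the histone list 8 rose and 5 fell, and their CPM summed to 1818 and 1817 CPM at T0 and 1371 and 1498 CPM after osimertinib. H2AX fell from 275 and 252 to 47.95 and 46.3 CPM (log2 fold change -2.48 ± 0.13). H2AZ1 fell from 329 and 341 to 65.2 and 67.6 CPM (log2 fold change -2.33 ± 0.073). SLBP, which binds the stem-loop of replication histone RNA, fell from 119 and 126 to 42.6 and 49.2 CPM (log2 fold change -1.42 ± 0.084). Some genes of the histone clusters, whose RNA mostly ends in that stem-loop without a polyA tail, rose instead. H1-2 rose from 12.2 and 11.7 to 101 and 114 CPM (log2 fold change 3.17 ± 0.10). H2BC5 rose from 7.91 and 8.39 to 76.6 and 88.3 CPM (log2 fold change 3.34 ± 0.11). H2AC6 rose from 15.8 and 15.9 to 107 and 117 CPM (log2 fold change 2.82 ± 0.091). Most RNA of the clustered genes lies outside what polyA libraries measure, and near-identical copies can share reads.

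Promoters are shown for replication genes and mitotic kinesins with large losses in their own lists, among those that hold the letters of a known regulator. GINS2 and CLSPN, of the replication fork, carry the E2F letters TTTCCCGC as their reverse complement, in capitals.
GINS2, chr16:85688905-85689204, minus strand: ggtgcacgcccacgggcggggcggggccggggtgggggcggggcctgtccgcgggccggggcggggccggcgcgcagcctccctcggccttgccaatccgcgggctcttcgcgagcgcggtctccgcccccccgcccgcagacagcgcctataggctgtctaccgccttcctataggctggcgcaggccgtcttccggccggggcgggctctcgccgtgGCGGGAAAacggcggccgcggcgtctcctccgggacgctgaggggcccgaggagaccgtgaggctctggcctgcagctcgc
CLSPN, chr1:35769929-35770228, minus strand: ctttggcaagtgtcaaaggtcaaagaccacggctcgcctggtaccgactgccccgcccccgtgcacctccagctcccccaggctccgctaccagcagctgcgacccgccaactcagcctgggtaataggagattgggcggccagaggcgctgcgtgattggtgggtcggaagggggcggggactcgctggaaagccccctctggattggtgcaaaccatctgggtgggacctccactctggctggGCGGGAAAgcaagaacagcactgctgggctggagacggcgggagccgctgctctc
The kinesins KIF18B and KIF15 carry TTTGAA, the core of the cell cycle homology region, or its reverse complement, and KIF18B also carries CCAAT boxes, with both kinds in capitals.
KIF18B, chr17:44947724-44948023, minus strand: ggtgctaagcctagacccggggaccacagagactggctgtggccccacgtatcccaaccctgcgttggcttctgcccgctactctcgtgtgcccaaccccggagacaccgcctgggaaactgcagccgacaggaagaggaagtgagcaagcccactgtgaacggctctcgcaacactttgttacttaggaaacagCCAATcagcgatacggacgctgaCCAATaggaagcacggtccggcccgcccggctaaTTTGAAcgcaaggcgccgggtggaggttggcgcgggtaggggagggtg
KIF15, chr3:44761544-44761843, plus strand: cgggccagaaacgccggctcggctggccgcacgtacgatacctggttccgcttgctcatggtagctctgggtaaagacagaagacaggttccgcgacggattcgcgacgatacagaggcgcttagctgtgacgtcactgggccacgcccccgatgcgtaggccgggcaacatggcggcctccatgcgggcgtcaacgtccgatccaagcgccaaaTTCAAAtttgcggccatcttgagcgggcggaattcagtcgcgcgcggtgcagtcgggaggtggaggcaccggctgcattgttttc
GINS2 fell from 60.8 and 57.8 to 2.36 and 3.08 CPM (log2 fold change -4.46 ± 0.14). CLSPN fell from 90.4 and 95.8 to 4.76 and 5.27 CPM (log2 fold change -4.22 ± 0.12). All 4 genes were separate from T0 by over 8-fold. KIF18B fell from 108 and 99.2 to 9.62 and 9.92 CPM (log2 fold change -3.41 ± 0.13). KIF15 fell from 45.4 and 45.9 to 4.72 and 4.54 CPM (log2 fold change -3.30 ± 0.14). TTTGGCGC or TTTCCCGC, searched on both strands, was in 18 of 47 windows of 38 matched replication genes (38.3%), beside 2.27% of all windows. TTTGAA was in 9 of 13 kinesin windows (69.2%, beside 15.2%). CCAAT was in 10 of these windows (76.9%, beside 34.6%). ORC3, with the smaller loss given above, also carries the E2F letters.

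Genes that supply growth fell nearly as consistently but by less. Of 25 genes of nucleotide synthesis 24 fell (median -1.27). PAICS, a purine enzyme, fell from 305 and 333 to 77.2 and 81.5 CPM (log2 fold change -2.01 ± 0.074). NME1, a nucleoside diphosphate kinase, fell from 66.1 and 61.2 to 10.5 and 12.3 CPM (log2 fold change -2.48 ± 0.11). Of 32 nucleolar genes of ribosome biogenesis 31 fell (median -1.22). NCL, nucleolin, fell from 1405 and 1492 to 445 and 504 CPM (log2 fold change -1.61 ± 0.080). NOP56, of the box C/D particles, fell from 354 and 362 to 74.8 and 75.6 CPM (log2 fold change -2.25 ± 0.074). LYAR, a nucleolar growth regulator, fell from 58.5 and 64.8 to 8.14 and 8.52 CPM (log2 fold change -2.89 ± 0.12). The promoter of LYAR, the member with the largest loss, is shown with the E-box of MYC in capitals.
LYAR, chr4:4289972-4290271, minus strand: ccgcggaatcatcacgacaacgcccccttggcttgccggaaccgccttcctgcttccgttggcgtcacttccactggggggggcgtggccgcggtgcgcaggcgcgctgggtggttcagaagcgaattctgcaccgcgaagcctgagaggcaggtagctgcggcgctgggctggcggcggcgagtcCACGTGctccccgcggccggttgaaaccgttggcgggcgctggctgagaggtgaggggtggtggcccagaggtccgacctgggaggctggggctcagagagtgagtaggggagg
CACGTG, which reads the same on both strands, was in 15 of 33 windows of 27 matched nucleolar genes (45.5%), beside 7.26% of all windows, and LYAR has 2 windows of which 1 holds it. MYC fell from 122 and 118 to 80.4 and 85.5 CPM (log2 fold change -0.53 ± 0.080). MXD4, an antagonist of MYC, rose from 16.9 and 15.4 to 131 and 122 CPM (log2 fold change 2.97 ± 0.10). MXI1, another antagonist, rose from 12.4 and 13.03 to 45.8 and 51.1 CPM (log2 fold change 1.93 ± 0.10). RNA of the cytosolic ribosomal proteins moved little by comparison. Of 38 genes 18 fell, RPS27 and RPL13A rose and 18 were not called, with log2 fold changes between -0.67 and 0.43, and reads of these genes can be shared with their pseudogenes.

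Genes of translation and energy supply were mostly lower too. Of 20 aminoacyl-tRNA synthetases 17 fell (median -0.69), and QARS1 rose. FARSB, of phenylalanine, fell from 249.7 and 264 to 41.6 and 44.8 CPM (log2 fold change -2.57 ± 0.084). QARS1, of glutamine, rose from 144 and 146 to 231 and 258 CPM (log2 fold change 0.75 ± 0.072). Of 20 ATF4 targets, which supply amino acids under stress, 11 fell and 5 rose. PSAT1, of serine synthesis, fell from 150.3 and 161 to 20.2 and 20.97 CPM (log2 fold change -2.92 ± 0.082). STC2 fell from 130.4 and 131 to 31.7 and 31.4 CPM (log2 fold change -2.05 ± 0.076). DDIT3, which encodes CHOP, rose from 3.58 and 5.33 to 8.37 and 6.95 CPM (log2 fold change 0.79 ± 0.19). NUPR1, the largest gain of that list, rose from 0 and 0.197 to 6.47 and 8.52 CPM (log2 fold change 6.14 ± 0.36). PSAT1 and most tRNA charging genes were thus lower, while NUPR1 and DDIT3 were higher. Glycolysis fell in 16 of 22 genes and rose in 4, and its CPM summed to 15754 and 16129.7 CPM at T0 and 8482 and 9151 CPM after osimertinib. HK2, the hexokinase of proliferating cells, fell from 79.1 and 84.2 to 19.8 and 20.9 CPM (log2 fold change -2.01 ± 0.087). LDHA, the lactate dehydrogenase, fell from 2033 and 2162 to 656 and 699 CPM (log2 fold change -1.63 ± 0.073). SLC2A3, a glucose transporter, rose from 5.999 and 6.47 to 23.3 and 22.8 CPM (log2 fold change 1.89 ± 0.12). Nuclear genes of the respiratory chain fell in 14 of 27 and rose in 6, with log2 fold changes between -1.45 and 0.38. Of 16 cytosolic chaperones 10 fell and 3 rose, among them CRYAB, the small heat shock protein αB-crystallin, at least 9.28-fold higher.

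Catabolic and protective genes went the other way. Of 30 lysosome and autophagy genes 20 rose and 5 fell (median 0.69), and their CPM summed to 3869 and 3833 CPM at T0 and 7984 and 8299 CPM after osimertinib. GABARAPL1, an autophagosome protein, rose from 28.4 and 30.01 to 275 and 315 CPM (log2 fold change 3.34 ± 0.092). CTSH, a cathepsin, rose from 36.4 and 33.5 to 251 and 265 CPM (log2 fold change 2.88 ± 0.085). PSAP, the precursor of the saposins, rose from 727 and 708 to 2192 and 2309 CPM (log2 fold change 1.65 ± 0.069). TFEB, a master factor of lysosome genes, stood at 4.69 and 5.43 CPM at T0 and 4.16 and 4.54 CPM after osimertinib and did not pass the test (edgeR adjusted p = 0.262). Of 16 aldehyde dehydrogenases 10 rose, and ALDH9A1 and ALDH1B1 fell. ALDH1A1, which makes retinoic acid, rose from 0.252 and 0.197 to 11.5 and 10.6 CPM (log2 fold change 5.58 ± 0.36). ALDH3A1 rose from 512 and 479.8 to 1668 and 1764 CPM (log2 fold change 1.79 ± 0.069). Of 18 NRF2 targets, the antioxidant response, 12 rose and 2 fell. TKT, the transketolase of the pentose phosphate pathway, rose from 1049 and 1005 to 2502 and 2500.0 CPM (log2 fold change 1.28 ± 0.072). AKR1C1, AKR1C2 and AKR1C3 rose too, with log2 fold changes of 0.96, 0.96 and 1.06, and these near copies can share reads.

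Metal and lipid genes added smaller groups. The metallothioneins and the zinc exporter SLC30A1 fell in 4 of 5, and none rose. MT2A, a metallothionein, whose near copies can share reads, fell from 138 and 133 to 17.7 and 22.8 CPM (log2 fold change -2.75 ± 0.10). Cholesterol synthesis and uptake rose in 12 of 22 genes and fell in 4. SREBF2, the master factor of the pathway, rose from 141 and 131 to 380.2 and 375 CPM (log2 fold change 1.47 ± 0.070). PDK4, which shifts mitochondria from glucose to fat, rose from 0.0504 and 0.296 to 2.31 and 2.97 CPM (log2 fold change 3.87 ± 0.58). AHRR, the repressor of the aryl hydrocarbon receptor, rose from 7.81 and 4.84 to 52.3 and 46.2 CPM (log2 fold change 2.96 ± 0.14).

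Interferon-stimulated genes rose in 30 of 39 and fell in 2, with a median log2 fold change of 1.99. These genes carry the antiviral response to type I interferon. IFIT2, which restrains viral translation, rose from 3.23 and 3.26 to 47.5 and 52.5 CPM (log2 fold change 3.94 ± 0.13, edgeR adjusted p = 1.79e-20). GBP2, an interferon-induced GTPase, rose from 1.87 and 2.62 to 35.2 and 34.5 CPM (log2 fold change 3.95 ± 0.15). TRIM22, an antiviral E3 ligase, rose from 0 and 0 to 3.98 and 3.7001 CPM (at least 25.6-fold higher). All were near 0 or low at T0 in both libraries. OAS3 fell from 64.03 and 67.4 to 17.6 and 15.9 CPM (log2 fold change -1.97 ± 0.10). USP18, an inhibitor of interferon signalling, fell from 6.76 and 5.73 to 3.61 and 3.42 CPM (log2 fold change -0.82 ± 0.17). OAS3 and USP18 were the members that fell. Of 15 STAT and IRF factors 11 rose and 1 fell. STAT2 rose from 22.4 and 21.6 to 144 and 136 CPM (log2 fold change 2.67 ± 0.085). IRF1 rose from 7.97 and 7.01 to 33.2 and 36.7 CPM (log2 fold change 2.22 ± 0.11). Of 10 sensors of foreign nucleic acids 6 rose and 3 fell. CGAS, the sensor of cytosolic DNA, fell from 61.3 and 59.6 to 14.98 and 15.6 CPM (log2 fold change -1.98 ± 0.11). STING1, its adaptor, rose from 13.8 and 13.97 to 30.4 and 33.5 CPM (log2 fold change 1.20 ± 0.10). The leukocyte markers given above stayed at or near 0 in both groups.

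The promoters of IFI6 and IFIT3 are those of the interferon genes with the largest gains that reach 10 CPM and hold GAAANNGAA, the interferon stimulated response element. The letters or their reverse complement are in capitals.
IFI6, chr1:27672143-27672442, minus strand: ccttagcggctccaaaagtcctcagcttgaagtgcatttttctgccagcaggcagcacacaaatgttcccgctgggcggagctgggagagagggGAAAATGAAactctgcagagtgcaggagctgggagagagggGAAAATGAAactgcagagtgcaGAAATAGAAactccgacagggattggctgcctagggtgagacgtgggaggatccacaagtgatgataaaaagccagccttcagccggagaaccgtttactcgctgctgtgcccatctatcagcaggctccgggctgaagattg
IFIT3, chr10:89327747-89328046, plus strand: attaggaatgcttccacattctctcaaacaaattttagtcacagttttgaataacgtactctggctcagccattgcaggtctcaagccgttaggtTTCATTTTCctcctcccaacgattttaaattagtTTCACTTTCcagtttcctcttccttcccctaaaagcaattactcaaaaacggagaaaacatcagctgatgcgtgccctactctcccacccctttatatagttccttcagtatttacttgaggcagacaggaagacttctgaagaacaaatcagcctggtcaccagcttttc
IFI6 rose from 1.56 and 1.68 to 13.5 and 15.5 CPM (log2 fold change 3.15 ± 0.21). IFIT3 rose from 4.34 and 4.89 to 32.1 and 30.5 CPM (log2 fold change 2.76 ± 0.13). Both lay well above T0, with little spread within pairs. GAAANNGAA was in 8.11% of all windows, searched on both strands. A share for the interferon list is void, since 31 of its 39 genes had a window, which is under 80%.

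Antigen presentation and complement rose beside the interferon genes. Of 20 genes of MHC class I presentation 15 rose and 2 fell (median 0.90). HLA-B rose from 35.9 and 35.9 to 97.9 and 106 CPM (log2 fold change 1.503 ± 0.088). B2M, the light chain of class I, rose from 325 and 326 to 561 and 606 CPM (log2 fold change 0.84 ± 0.069). PSMB9, of the immunoproteasome, rose from 9.48 and 7.45 to 35.9 and 40.03 CPM (log2 fold change 2.16 ± 0.13). HLA genes are polymorphic and alike, so their reads are uncertain. Of 15 complement genes 10 rose, and CD59 fell (median 2.05). CFI, complement factor I, rose from 0 and 0 to 0.601 and 0.448 CPM (at least 3.51-fold higher). C1S, a protease of the classical pathway, rose from 9.83 and 10.2 to 98.6 and 99.6 CPM (log2 fold change 3.31 ± 0.11). CLU, clusterin, rose from 109 and 106 to 428 and 461 CPM (log2 fold change 2.05 ± 0.078). Checkpoint and NK ligands split, 6 higher and 6 lower of 16. CD274, which encodes PD-L1, fell from 16.7 and 16.98 to 1.53 and 1.79 CPM (log2 fold change -3.35 ± 0.22). ULBP2, a ligand of the NK receptor NKG2D, fell from 3.83 and 4.74 to 0.3699 and 0.617 CPM (log2 fold change -3.14 ± 0.29). VSIR, which encodes VISTA, rose from 49.5 and 47.3 to 167 and 169 CPM (log2 fold change 1.80 ± 0.078). PD-L1 and VISTA thus lay on opposite sides of T0. In the chemokine and cytokine list 6 of 16 rose and 5 fell, with CXCL8, a chemokine of neutrophils, at -2.78 on the log2 scale and IL6 at 1.33.

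Mucin genes were mostly higher, and markers of lung epithelium moved both ways. Of 10 lung epithelial markers 5 rose, 3 fell and 2 did not pass the test. Of 8 tested mucins 6 rose and 1 fell, and their CPM summed to 97.95 and 92.5 CPM at T0 and 1219.6 and 1079.9 CPM after osimertinib. MUC20, a cell surface mucin, rose from 15.7 and 14.1 to 462 and 468 CPM (log2 fold change 4.96 ± 0.087, edgeR adjusted p = 1.13e-25). MUC1, another, rose from 8.47 and 7.404 to 135 and 131 CPM (log2 fold change 4.07 ± 0.10). MUC4, another, rose from 34.9 and 30.6 to 476 and 344 CPM (log2 fold change 3.65 ± 0.12). The osimertinib libraries differed from each other more for MUC4 than for the other mucins named, but stayed apart from T0. CLDN4, of tight junctions, rose from 352 and 323 to 976 and 1006 CPM (log2 fold change 1.55 ± 0.079). CDH1, E-cadherin, rose from 185 and 194 to 251 and 279 CPM (log2 fold change 0.48 ± 0.073). VIM, vimentin, fell from 17.4 and 20.6 to 5.18 and 4.54 CPM (log2 fold change -1.96 ± 0.15). Epithelial and mesenchymal genes did not part cleanly. EPCAM fell from 537 and 541 to 273 and 307 CPM (log2 fold change -0.89 ± 0.073). FN1, fibronectin, rose from 171 and 176 to 615 and 654 CPM (log2 fold change 1.87 ± 0.079). ZEB1, a repressor of epithelial genes, fell from 1.36 and 1.23 to 0.185 and 0.168 CPM (log2 fold change -2.83 ± 0.69). In the list of epithelial-mesenchymal regulators and cadherins 7 of 20 rose and 8 fell.

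Of 16 keratins 9 rose and 5 fell. KRT17 rose from 28.5 and 27.8 to 399 and 439 CPM (log2 fold change 3.90 ± 0.091). KRT16 rose from 17.6 and 17.4 to 132 and 152 CPM (log2 fold change 3.02 ± 0.093). KRT6A fell from 399 and 403 to 24.3 and 24.8 CPM (log2 fold change -4.03 ± 0.10). KRT6B fell from 12.4 and 15.5 to 0 and 0.112 CPM (at least 91.1-fold lower). KRT16 and KRT17 thus rose while KRT6A and KRT6B, the genes of their usual partner in activated skin, fell. Keratin genes have near copies and pseudogenes, so their reads are uncertain. KRT7, of simple epithelia, rose from 2392 and 2196 to 4030.2 and 4142 CPM (log2 fold change 0.83 ± 0.074). KRT8, of simple epithelia, stood at 4124 and 4086 CPM at T0 and 3964 and 4280.0 CPM after osimertinib and did not pass the test (edgeR adjusted p = 0.965). The 5 squamous basal markers summed to 112 and 103 CPM at T0 and 51.2 and 63.7 CPM after osimertinib. Of the 4 tested, 2 fell, 1 rose by 1.16 on the log2 scale and 1 did not pass the test. TP63, the master factor of squamous cells, fell from 4.23 and 3.75 to 0.231 and 0.224 CPM (log2 fold change -4.10 ± 0.49). Of 11 tested genes of lung lineage and surfactant 4 rose, 2 fell and 5 did not pass the test (54.5% called, beside 61.4% of all genes). Another 12 were below the expression filter. HOPX, a marker of type I alveolar cells, rose from 0.101 and 0.0494 to 2.497 and 2.97 CPM (at least 18.3-fold higher). GATA6, of the airway lineage, rose from 16.9 and 19.6 to 62.3 and 55.3 CPM (log2 fold change 1.69 ± 0.12).

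Adhesion to the basement membrane changed in its composition. Of 23 integrin and laminin genes 11 fell and 6 rose. LAMB3 fell from 429.7 and 451 to 172 and 172 CPM (log2 fold change -1.36 ± 0.078). LAMA3 fell from 513 and 571 to 154 and 165 CPM (log2 fold change -1.76 ± 0.074). Both chains belong to the laminin of epithelial hemidesmosomes, and both were lower. ITGA3, a receptor chain for that laminin, fell from 718 and 688 to 204 and 198 CPM (log2 fold change -1.81 ± 0.078). ITGA2, a collagen receptor chain, fell from 366 and 405 to 27.3 and 28.9 CPM (log2 fold change -3.78 ± 0.10). Chains of other laminins went up. LAMB2 rose from 120.3 and 111 to 285 and 249.5 CPM (log2 fold change 1.21 ± 0.078). LAMA5 rose from 953 and 871 to 1494 and 1186 CPM (log2 fold change 0.56 ± 0.10). Of 22 collagens 11 rose and 6 fell.

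Collagens and proteases showed both directions. COL4A4, of basement membrane, rose from 5.14 and 6.07 to 76.1 and 71.5 CPM (log2 fold change 3.72 ± 0.13). COL12A1, which coats collagen fibrils, rose from 31.96 and 37.4 to 218 and 222 CPM (log2 fold change 2.67 ± 0.092). COL13A1, a transmembrane collagen, fell from 1.11 and 1.38 to 0 and 0 CPM (at least 8.12-fold lower). The 7 fibroblast markers summed to 21.1 and 18.4 CPM at T0 and 45.9 and 37.8 CPM after osimertinib, nearly all of it from COL1A1, with COL3A1 at 0 in all 4 libraries, and their part in the collagen values was not tested. MMP14, a membrane protease that cleaves collagen, rose from 29.7 and 27.8 to 193 and 189 CPM (log2 fold change 2.73 ± 0.084). TIMP2, its inhibitor and cofactor, rose from 211 and 214 to 889 and 1052 CPM (log2 fold change 2.19 ± 0.077). 6 of 20 protease and urokinase genes rose and 8 fell. PLAUR, the urokinase receptor, fell from 52.3 and 54.7 to 25.1 and 30.2 CPM (log2 fold change -0.96 ± 0.10). MMP2, a gelatinase, fell from 1.26 and 0.888 to 0.0462 and 0.112 CPM (at least 7.001-fold lower).

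Contractile genes were largely higher. Of 19 SRF-linked genes of actin and contraction 13 rose, and ACTB and VCL fell. MYL9, a myosin light chain, rose from 5.09 and 4.39 to 86.4 and 96.2 CPM (log2 fold change 4.27 ± 0.13). TAGLN, transgelin, rose from 4.64 and 3.899 to 30.6 and 30.9 CPM (log2 fold change 2.85 ± 0.17). CNN1, calponin, rose from 0 and 0 to 5.04 and 5.21 CPM (at least 34.3-fold higher). These markers of smooth muscle-like contraction were near 0 or low in both T0 libraries. CALD1, caldesmon, rose from 124 and 138 to 534 and 546 CPM (log2 fold change 2.04 ± 0.079). TPM1, a tropomyosin, rose from 179 and 181 to 486 and 507 CPM (log2 fold change 1.47 ± 0.074). VCL, vinculin, fell from 412 and 434 to 339 and 339 CPM (log2 fold change -0.32 ± 0.071). FHL2, a LIM protein, is shown by a promoter window with the CArG box of SRF in capitals.
FHL2, chr2:105399002-105399301, minus strand: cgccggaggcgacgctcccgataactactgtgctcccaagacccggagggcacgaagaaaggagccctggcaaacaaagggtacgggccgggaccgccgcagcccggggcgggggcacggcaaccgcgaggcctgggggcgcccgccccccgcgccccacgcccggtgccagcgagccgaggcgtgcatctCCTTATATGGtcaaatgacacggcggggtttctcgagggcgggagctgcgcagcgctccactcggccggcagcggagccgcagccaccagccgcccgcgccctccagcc
FHL2 rose from 91.05 and 96.5 to 221 and 216 CPM (log2 fold change 1.22 ± 0.078). It has 4 windows, of which 3 hold the box. The CArG box, searched on both strands, was in 10 of 31 windows of 16 matched SRF-linked genes (32.3%), beside 1.29% of all windows.

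Targets of TGF-β, BMP and YAP were more often higher than lower. Of 21 ID genes and SMAD feedback genes 14 rose and 4 fell. ID4 rose from 13.4 and 14.1 to 81.7 and 81.9 CPM (log2 fold change 2.57 ± 0.11). ID3 rose from 29.5 and 30.3 to 130.3 and 134 CPM (log2 fold change 2.14 ± 0.088). TGFB2, a ligand, rose from 48.3 and 49.3 to 284 and 264 CPM (log2 fold change 2.49 ± 0.090). ID proteins block basic helix-loop-helix factors and are induced by BMP. NOG, noggin, a BMP antagonist, fell from 36.05 and 32.8 to 2.31 and 3.14 CPM (log2 fold change -3.67 ± 0.17). FST, follistatin, an activin antagonist, fell from 3.13 and 3.998 to 0.647 and 0.673 CPM (log2 fold change -2.42 ± 0.35). The antagonists NOG and FST thus fell while the ID genes rose. Of 21 YAP and TEAD genes 15 rose and 4 fell. CCN2 rose from 30.4 and 26.1 to 137 and 133 CPM (log2 fold change 2.26 ± 0.090). VGLL3, a TEAD cofactor, rose from 34.2 and 37.1 to 228 and 235 CPM (log2 fold change 2.70 ± 0.091). ANKRD1 fell from 18.5 and 21.2 to 1.43 and 2.35 CPM (log2 fold change -3.41 ± 0.23). Among classical YAP targets CCN2 and ANKRD1 therefore moved apart.

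Lists of developmental pathways moved both ways, with called shares of 77.3% for WNT, 55.6% for Notch and 75% for nuclear receptors, beside 61.4% of all genes. In the WNT list 9 of 22 rose and 8 fell. WNT5A rose from 129 and 118 to 812 and 752 CPM (log2 fold change 2.66 ± 0.074). LGR5, a stem cell receptor of R-spondin, rose from 0 and 0 to 0.509 and 0.729 CPM (at least 4.13-fold higher). NKD1, a feedback inhibitor, fell from 0.907 and 0.987 to 0.0462 and 0.0561 CPM (at least 6.17-fold lower). WNT5A and LGR5 thus rose while NKD1 fell. In the Notch list 4 of 18 rose and 6 fell. JAG1, a ligand, fell from 128 and 133 to 34.2 and 36.5 CPM (log2 fold change -1.89 ± 0.080). NRARP, a feedback gene, fell from 37.9 and 44.4 to 5.503 and 8.47 CPM (log2 fold change -2.57 ± 0.17). HES1, a target, rose from 46.8 and 44.1 to 109 and 101 CPM (log2 fold change 1.21 ± 0.079). Of 24 nuclear receptors 13 rose and 5 fell. RARB, a retinoic acid receptor and target, rose from 0.0504 and 0.543 to 6.98 and 7.23 CPM (log2 fold change 4.54 ± 0.44). VDR, the vitamin D receptor, fell from 52.5 and 55.8 to 6.66 and 8.41 CPM (log2 fold change -2.85 ± 0.11). Of 15 clock genes 8 rose and 6 fell, DBP, an output gene, by 2.03 and CRY1, a repressor, by -1.38 on the log2 scale.

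In all, 102 genes, some of them described above, had at most 3 reads in each T0 library and at least 1 CPM in both osimertinib libraries, and 44 had the reverse. They were picked for those values, so the folds are a description. After GABRP the highest were ECEL1P2, NKAIN4 and TMC1, at 10.2, 9.71 and 9.35 CPM on average after osimertinib. The secreted proteins ZG16, FBLN2 and WNT6 were in the same group. ZG16 held 3 reads in each T0 library and was higher by a log2 fold change of 5.56 ± 0.43. FBLN2 and WNT6 were at least 39.1-fold higher and at least 35.6-fold higher. In the reverse direction, after IL1R2 and SPRY4, came the lysolipid transporter MFSD2A, at least 95.5-fold lower. PTX3, DMBT1 and CTSE, of mucosal defence and antigen processing, were at least 35.7-fold lower, at least 35.3-fold lower and at least 28.8-fold lower.

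Erlotinib in the same line was set beside osimertinib to see which of these values differ between the inhibitors. At 36 h, 3163 of 19108 genes (16.6%) differed between 0.1 μM osimertinib and 10 μM erlotinib, 1938 higher and 1225 lower with osimertinib, and 523 of them by over 2-fold. Without the second osimertinib library of PC9 the count was 2108. The doses are not the same, so the drug and its dose cannot be told apart. By that test, genes of the ATF4 list were lower with osimertinib in 18 of 20, tRNA synthetases in 13 of 20 and ribosomal protein genes in 34 of 38. Interferon-stimulated genes were higher with osimertinib in 22 of 39, SRF-linked genes in 12 of 19, ID and SMAD genes in 14 of 21 and AP-1 and EGR genes in 9 of 16. PSAT1 averaged 20.6 CPM with osimertinib and 604 CPM with erlotinib (log2 difference -4.88 ± 0.085, edgeR adjusted p = 3e-25). FOS averaged 133 and 26.5 CPM (log2 difference 2.34 ± 0.11, edgeR adjusted p = 3.02e-15). IFIT2 averaged 49.98 and 18.5 CPM (log2 difference 1.43 ± 0.10, edgeR adjusted p = 5.81e-12). Serine synthesis, an immediate early gene and an antiviral gene thus stood at different levels under the drugs. None of the 12 mitotic kinesins and none of the 8 BH3-only genes was called between the drugs. BMF averaged 85.6 and 90.5 CPM (log2 difference -0.08 ± 0.084, edgeR adjusted p = 0.598).

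**Figure D4:**
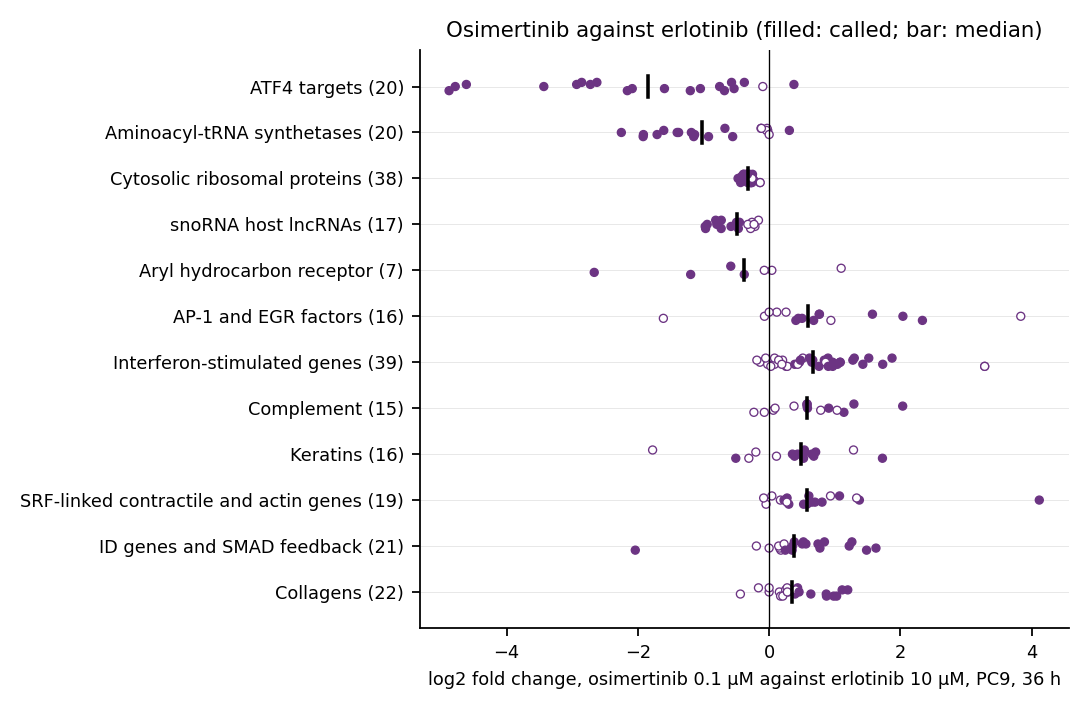
Log2 difference between osimertinib and erlotinib in PC9 at 36 h for each tested member of 12 gene lists, with filled points for called genes, open points for others and a bar at the median. The ATF4 list lies to the left, with 18 of 20 genes lower with osimertinib, and the SRF-linked list to the right, with 12 of 19 higher.

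In H1650, another lung cancer line with a deletion in EGFR, the same dose and time of osimertinib gave a median size of change of 0.33 on the log2 scale, beside 0.71 in PC9. The change differed between the lines for 8014 genes (41.9%), and 800 of these were called in opposite directions. All 44 replication genes, all 12 kinesins and all 6 Sprouty and SPRED genes differed, each with the more negative value in PC9. All 19 SRF-linked genes differed too, with the higher value in PC9, and their median log2 fold change was 0.59 in PC9 and -1.15 in H1650. TGM2 averaged 367 CPM at T0 and 479 CPM after osimertinib in H1650 (difference H1650 minus PC9 in log2 fold change 6.44 ± 0.11, edgeR adjusted p = 5.79e-26). MCM5 averaged 175 CPM at T0 and 131 CPM after osimertinib (difference H1650 minus PC9 in log2 fold change 3.01 ± 0.11, edgeR adjusted p = 5.82e-18). MYL9 averaged 1098 CPM at T0 and 517 CPM after osimertinib (difference H1650 minus PC9 in log2 fold change -5.35 ± 0.16, edgeR adjusted p = 5.05e-20). Neither the loss of TGM2 nor the gain of MYL9 in PC9 was thus matched in H1650. Interferon-stimulated genes differed in 22 of 39, 13 with the higher change in PC9 and 9 with the higher change in H1650.

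**Figure D5:**
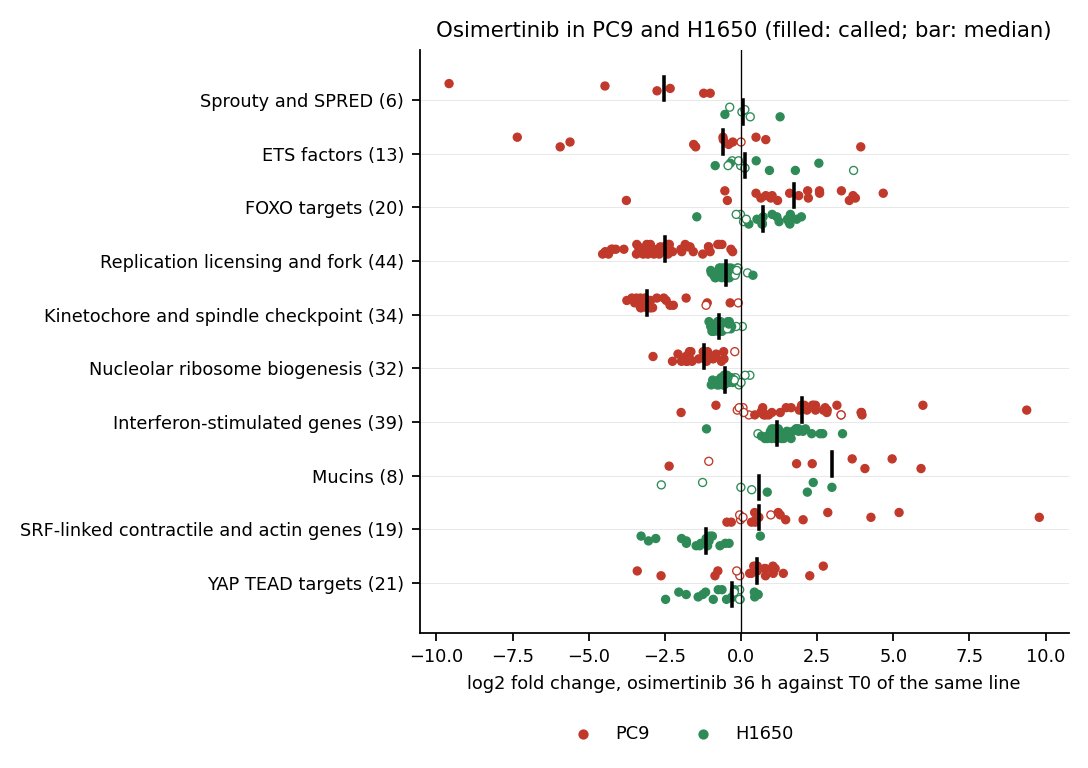
Log2 fold change after osimertinib against T0 of the same line, in PC9 (red) and H1650 (green), for each tested member of 10 gene lists, with filled points for called genes and bars at the medians. The median of the replication genes is -2.49 in PC9 and -0.50 in H1650, and SRF-linked genes have medians on opposite sides of 0.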

How the data were processed

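RNA was extracted with the Qiagen RNeasy kit and sequenced at Novogene, and the authors processed the reads in DolphinNext and compared groups with DESeq2, with GRCh38 named in the submitters' processing notes. The authors deposited read counts per gene for 60591 genes in 12 libraries, whole numbers that are not normalized. The aligner, annotation and strand setting are not given in the sources used here, so reads of overlapping, antisense and near-identical genes cannot be told apart. Libraries were grouped by their labels. Genes that passed edgeR's filterByExpr by group (19108 of 60591) were fitted over all 12 libraries with TMM factors and 6 group means, and tested with edgeR's quasi-likelihood test (R 4.3.3, edgeR 4.0.16, limma 3.58.1) with Benjamini-Hochberg adjustment at 0.05. The fit thus shares 1 estimate of the spread over both lines, and each group has 2 libraries. The standard error is the size of the log2 fold change divided by the root of F. Where no library of a group had over 3 reads, the fold was computed against 3 reads. That covers counting error only, and covers it fully only for a count of 0. The test was also run on simulated counts in which few genes changed and none of those was low. That run does not cover a change as broad as the one described here.

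The members and gene lists were chosen with earlier results of these data known. Genes were named by these rules: members of the lists, the largest changes and those that missed the test; the 20 highest and 20 lowest fold changes among called genes with at least 20 CPM in the higher group; the 15 largest gains and 15 largest losses in CPM; the 8 highest and 8 lowest differences between drugs and between lines at a mean of at least 20 CPM; and the 10 highest genes with at most 3 reads per library in the other group. For the differences between drugs and between lines, a mean of at least 20 CPM was needed in at least 1 of the groups compared. Of 1379 list genes 1372 were in the table under the symbol used, and 1281 passed the filter. Some genes are not reported here. Gene positions are from GENCODE 29 (GRCh38). Promoter windows, 250 bases before to 50 after a start, are from RefSeq (GRCh38.p14) and matched 12201 of 19108 tested genes by symbol. Replicates of a group differed by more than counting error (chi-square per degree of freedom 3.86 to 6.84), so none was counted as a repeat. Alternatives were other scaling factors, DESeq2 1.42.0, other filters, fewer libraries, a replicate block, a stricter threshold and leaving out each PC9 library compared.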

Additional observations from a re-analysis of the deposited data

Results flagged for a closer look

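The change after osimertinib differed between H1650 and PC9 for 8014 genes by edgeR's test of the difference itself, which is what singled out the values here. Each value is the log2 fold change in H1650 minus that in PC9, for the 8 lowest and the 8 highest genes. A mean of at least 20 CPM was needed in at least 1 group of either line. CCN5, TRIM22, BMP5, ETV1, PAG1 and IRX5 reached it only in H1650. IRX5 averaged 0.201 CPM at T0 and 0 CPM after osimertinib in PC9, beside 74.5 and 104 CPM in H1650. The lowest, where PC9 rose more, were -11.56 for GABRP, -9.15 for CCN5, -7.88 for AL590004.3, -7.66 for SLC7A7, -6.70 for TRIM22, -6.70 for BMP5, -6.28 for VTCN1 and -6.27 for GLP2R. The highest, where PC9 fell more, were 9.21 for SPRY4, 7.94 for IL1R2, 7.72 for ETV1, 7.05 for ETV5, 6.44 for TGM2, 5.86 for PAG1, 5.63 for IRX5 and 5.61 for MALL. GABRP, CCN5, TRIM22 and BMP5 at T0 and SPRY4, IL1R2, ETV1 and IRX5 after osimertinib had at most 3 reads in both PC9 libraries of a group, so their value depends on the prior count of the fit and is no bound. In H1650, IL1R2 averaged 0.058 CPM at T0 and 0.022 CPM after osimertinib, and GABRP 0.07 and 0.14 CPM. Both were thus near 0 in that line throughout, and the standard errors of their differences were 3.09 and 2.19. Groups of 2 libraries are too small for a test of a sample that stands apart from its group.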

How the results depend on the processing

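The 11735 calls became 11718 with RLE factors, 11847 with upper quartile factors, 10950 with DESeq2, 11694 with no filter, 9535 with at least 10 counts in every library, 11677 with the 6 PC9 libraries, 11722 with the 4 libraries compared, 10133 at an adjusted p under 0.01 and between 10418 and 10964 without 1 library. No called gene was called in the opposite direction under these alternatives. Genes called higher outnumbered those called lower except with no filter, the 6 PC9 libraries or the 4 libraries compared. A fit with at least 10 counts in every library called 3718 genes beyond 2-fold, beside 5962, and that filter removes genes at 0 in a group. Calls between osimertinib and erlotinib went from 3163 to 1930 at an adjusted p under 0.01 and to between 2108 and 3022 without 1 library, the lowest without PC9 osimertinib replicate 2, and the cause was not tested. The correlation of deviations of same-numbered libraries ran from -0.06 to 0.17 over 15 pairs of groups and was over 0.1 in 4, so the numbers were not taken as pairs. With the replicate block 12127 genes were called, and 4166 between osimertinib and erlotinib. Of 298 named genes, KRT8, not called, changed sign: its log2 fold change was -0.0049 with RLE factors and with DESeq2, -0.0794 with no filter, -0.0553 with 6 and -0.0462 with 4 libraries, and between -0.0539 and 0.0594 without 1 library. IRX5, at the floor after osimertinib, lost its call in 4 alternatives, upper quartile factors and 3 of the 4 fits without 1 library. JUN gained a call with the block. The median of 19 lists, none stated in the text of the report, changed sign or reached or left 0 under an alternative. With 2 libraries a group, small changes of low genes were the least well measured: 26.9% of genes with a mean under 1 CPM were called.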
